A study of Rattus norvegicus with 9 samples.

Results

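Glutathione, peroxiredoxin and antioxidant genes were examined in the left ventricle of rats after ischemia reperfusion injury (IRI), with and without remote ischemic postconditioning (RPostC). The members were the genes with a single symbol on the array that belong to the glutathione S-transferase (Gst a, k, m, o, p and t), glutathione peroxidase (Gpx), peroxiredoxin (Prdx), thioredoxin (Txn) and superoxide dismutase (Sod) families, together with Cat, Nqo1, Srxn1, Gclc, Gclm, Gss, Gsr, Nfe2l2, Keap1 and Slc7a11. They were picked by symbol, in a choice made with earlier results of these data known. They came to 67 of 21013 genes, each with 1 probe set. Of these, 20 were glutathione S-transferases, 9 glutathione peroxidases, 5 genes of glutathione synthesis and recycling, 9 peroxiredoxins, 16 genes of the thioredoxin system, 4 superoxide dismutases and catalase, and 4 regulators or targets of the transcription factor NRF2. The thioredoxin symbols included 8 Txndc genes, which share a thioredoxin fold but have varied roles.

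The study used male Wistar rats in 3 groups, with 3 arrays each. IRI + RPostC rats had the left anterior descending artery of the heart occluded for 45 min, followed by 3 cycles of 30 s of clamping and 30 s of release of the left femoral artery. IRI rats had the same coronary block without the femoral cycles, and control rats had a thread passed around the coronary artery for 60 min without a block. In IRI + RPostC and IRI rats, 15 min of stabilization came before closure of the chest. Elsewhere the surgery is described with a 30 min ligation, and the sources used here give no length of reperfusion before the hearts were sampled for RNA. Nothing in the labels shows whether the 3 samples of a group were separate animals, so the p-values describe no more than the spread among the arrays.

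Glutathione is a tripeptide whose thiol group reduces peroxides and takes up reactive molecules. Glutamate cysteine ligase, with the catalytic subunit Gclc and the modifier subunit Gclm, makes its precursor, Gss completes it, Gsr recycles the oxidized form, and Slc7a11 imports cystine for its synthesis. Glutathione peroxidases use it to reduce peroxides, and glutathione S-transferases join it to electrophiles. Peroxiredoxins also reduce peroxides and are themselves reduced by thioredoxin, which thioredoxin reductases recharge with NADPH. Superoxide dismutases turn superoxide into hydrogen peroxide, which catalase breaks down. Many of these genes carry the antioxidant response element bound by NRF2 (Nfe2l2), which Keap1 holds in check. In the heart, reperfusion of blocked tissue is known for a burst of reactive oxygen.

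Gstm5 was the member with the largest decrease against control, Gclc and Txnrd1 were among those with the largest increases, and their promoters are shown for that reason. They are RefSeq promoters of build GRCr8, 300 bases around each start: Gstm5 at chr2:198219519-198219818 on the plus strand, Txnrd1 at chr7:22755855-22756154 on the minus strand, and Gclc at chr8:87510226-87510525 on the plus strand. Capitals mark the core of the antioxidant response element, TGACNNNGC, searched on both strands. On the opposite strand it reads GCNNNGTCA. The Gstm5 window held 2 matches and the Txnrd1 window 1. The Gclc window held none, which says only that these letters are not in this window, and another Txnrd1 promoter in the table held none either.
Gstm5: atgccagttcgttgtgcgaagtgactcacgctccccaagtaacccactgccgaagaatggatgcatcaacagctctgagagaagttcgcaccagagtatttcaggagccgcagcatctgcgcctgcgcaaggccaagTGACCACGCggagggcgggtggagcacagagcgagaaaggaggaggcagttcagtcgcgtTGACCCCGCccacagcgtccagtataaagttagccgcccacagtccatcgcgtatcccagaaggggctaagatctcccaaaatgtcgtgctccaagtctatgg
Txnrd1: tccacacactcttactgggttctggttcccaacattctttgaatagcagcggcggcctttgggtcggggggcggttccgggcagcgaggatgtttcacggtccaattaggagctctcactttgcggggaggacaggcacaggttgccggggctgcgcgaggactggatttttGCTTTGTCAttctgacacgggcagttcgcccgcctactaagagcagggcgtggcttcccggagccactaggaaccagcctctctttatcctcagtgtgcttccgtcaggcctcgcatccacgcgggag
Gclc: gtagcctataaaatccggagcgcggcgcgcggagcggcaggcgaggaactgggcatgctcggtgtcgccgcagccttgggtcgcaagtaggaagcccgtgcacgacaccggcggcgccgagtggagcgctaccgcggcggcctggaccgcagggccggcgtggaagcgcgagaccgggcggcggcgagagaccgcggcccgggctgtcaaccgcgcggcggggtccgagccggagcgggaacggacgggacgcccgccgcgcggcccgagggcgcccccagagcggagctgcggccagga

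Over all members, the core was found in 17 of the 58 genes that had a promoter in the table, or 29.3%, against 13.1% of 27457 genes and 12.1% of 33469 promoters of the same length. Among the members with a promoter, it was found in 1 of 6 that were higher in IRI than in control, in 3 of 14 that were lower and in 13 of 38 that did not pass the test. A match is a run of letters and not a measured binding site. Gstm5 was also a target of the study's quantitative PCR, whose primers are shown to identify the transcript measured.
Gstm5 forward primer: ccagagtaacgccatcttgc
Gstm5 reverse primer: tgcaggcagttgttccaaat

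The values were log2 signals, so a difference of 1 is a 2-fold change, and no member reached 19 on any array (highest 17.0). A probe set was called above background on an array when it passed 4.79, the 95th percentile of the mean signals of 1346 odorant, pheromone and taste receptor probe sets. By this limit 49 members were above background on every array and 10 were below it on every array (Gpx2, Gpx2-ps2, Gpx5, Gpx6, Gsta2, Gsta3, Gsta3l1, Prdx1-ps5, Slc7a11 and Txnl4al1). Across the whole series, arrays within a group correlated at 0.9939 to 0.9968 in IRI + RPostC, 0.9916 to 0.9949 in IRI and 0.9792 to 0.983 in control. IRI arrays correlated with control arrays at 0.8088 to 0.8565. Signals of at least 19 were held by 1944 to 1948 probe sets per IRI + RPostC array and 1918 to 1948 per IRI array, against 166 to 172 per control array. The hybridization controls averaged 10.44 in IRI + RPostC, 10.42 in IRI and 11.21 in control. The scale of the control arrays and the surgery cannot be told apart, and each direction below was also examined after quantile normalization and after centring of each array on its median. Within at least 1 group, 22 members had the same value to the last digit on all 3 arrays (9 members in IRI + RPostC, 13 in IRI and 4 in control), so their replicate spread there was 0. In bulk tissue, fewer cells of a type and less RNA per cell cannot be told apart.

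Against control, the antioxidant genes of IRI hearts moved in both directions. The thioredoxin reductase Txnrd1, the thioredoxin inhibitor Txnip, the thioredoxin-like protein Txnl1 and the glutathione synthesis enzyme Gclc were higher, though Txnip turned to -3.19 after quantile normalization. Most mu class glutathione S-transferases, the glutathione peroxidases Gpx3, Gpx4 and Gpx8 and the mitochondrial peroxiredoxin Prdx3 were lower. In limma with Benjamini-Hochberg adjustment over all probe sets, 8 members were higher and 16 lower at an adjusted p under 0.05, which is 35.8% of the 67. One of the lower calls, Gpx6, was below background on every array. The background was 16.2% of all 65403 probe sets (9.95% higher and 6.26% lower), and 18.3% of single-symbol genes (8.9% higher and 9.42% lower). The single-symbol shares are also the background for the family counts below. These shares include many dim probe sets. With the filter on dim probe sets, 8 of 55 members were higher and 16 lower, against 7291 and 3439 of 26362 probe sets. The total share called was then nearer to that of all probe sets kept. The median log2 difference was -0.07 over the members and -0.04 over all probe sets. After quantile normalization the split was 6 higher and 35 lower, and after centring 8 higher and 13 lower. Of all 65403 probe sets, 4744 were then higher and 8946 lower after quantile normalization, and 7459 and 2931 after centring.

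**Figure D1:**
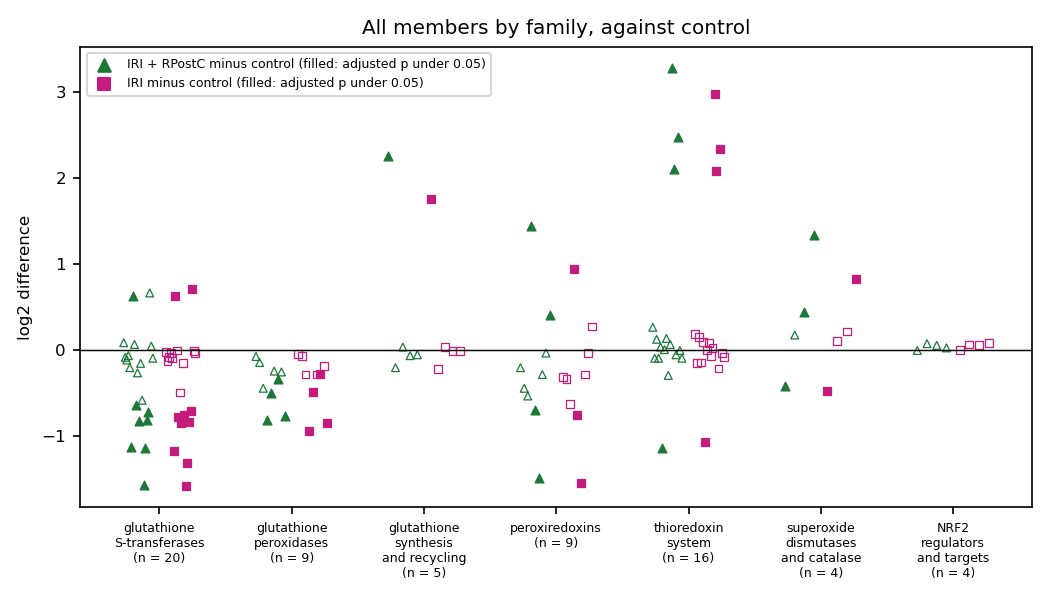
Log2 difference from control (vertical axis) of each of the 67 members, by family (horizontal axis). Green triangles are IRI + RPostC minus control and magenta squares are IRI minus control; filled symbols had an adjusted p under 0.05, and the 3 highest filled symbols of each colour in the thioredoxin system are Txnip, Txnrd1 and Txnl1.

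The mu class glutathione S-transferases (Gstm) all lay on the same side of 0. All 9 Gstm genes had a fitted difference below 0 in IRI against control, as they did after quantile normalization and after centring, and 7 of the 9 passed the test (Gstm1, Gstm3, Gstm4, Gstm5, Gstm6, Gstm6l and Gstm7). On all 9, the 3 IRI arrays lay below the 3 control arrays, where arrays of all probe sets did not overlap in the lower direction in 14.6%. Their median log2 difference was -0.78, with a range from -1.59 to -0.16.

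Gstm5 read 5.44, 5.48 and 5.20 on the IRI + RPostC arrays, 5.27, 5.53 and 5.31 on the IRI arrays, and 7.02, 6.84 and 7.01 on the control arrays. Every control array was higher than every other array, while the IRI + RPostC and IRI values overlapped. Gstm5 was 3.01-fold lower in IRI than in control (log2 difference -1.59 ± 0.10, SE, adjusted p = 3.13e-05).

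Gstm6 gave 4.98, 5.16 and 5.16 in IRI + RPostC, 5.16, 4.79 and 4.81 in IRI, and 6.35, 6.30 and 6.09 in control. It was 2.50-fold lower in IRI than in control (log2 difference -1.32 ± 0.12, SE, adjusted p = 0.000239), with its IRI values close to the background limit. Gstm1 had 7.37 on each IRI + RPostC array, 7.37, 7.29 and 7.01 in IRI, and 8.16, 8.0 and 7.86 in control. Its difference in IRI against control was -0.78 ± 0.11 (log2, SE, adjusted p = 0.00216), and no IRI or IRI + RPostC array reached the lowest control array.

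Gstm3 averaged 4.12 ± 0.05 in IRI + RPostC, 4.10 ± 0.10 in IRI and 4.95 ± 0.05 in control (SD, n = 3 each), and was not above background on any IRI + RPostC or IRI array. Measured against the background limit, it was lower in IRI than in control by at least 0.16 on the log2 scale, a bound that was not tested. The fitted difference was -0.85 (limma, adjusted p = 6.63e-05) and uses the IRI values below that limit. Gstm7 differed by -0.71 (adjusted p = 0.00886), Gstm6l by -0.84 (adjusted p = 0.0219) and Gstm4 by -0.76 (adjusted p = 0.0332). The Gstm4 call was lost without any of 7 arrays in turn (IRI + RPostC 2 and 3, IRI 2 and 3, and each control; adjusted p 0.0502 to 0.103), and the Gstm6l call without IRI 1 or 3 or control 2 or 3 (0.0518 to 0.0703).

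The other 2 mu class genes did not pass the test. Gstm2 read 10.28, 11.01 and 10.70 in IRI + RPostC, 10.70, 10.70 and 9.90 in IRI, and 10.90, 10.84 and 11.06 in control. Its difference in IRI against control was -0.50, with a 95% interval from -1.12 to 0.12, but after quantile normalization it was -5.51 (adjusted p = 0.000686). Gstm3l1 differed by -0.16, with an interval from -0.30 to -0.02 and an adjusted p of 0.125.

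In the RefSeq gene table of build GRCr8, the 9 Gstm genes followed each other on chromosome 2 with no other listed gene between them, in the order Gstm5, Gstm6l, Gstm7, Gstm6, Gstm3l1, Gstm3, Gstm2, Gstm1 and Gstm4. The lowest fitted difference stood at the Gstm5 end, and the one nearest 0 at Gstm3l1 in the middle of the run. Probe sequences were not used here, so signal that near-identical mu class transcripts may share cannot be told apart from each gene's own.

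**Figure D2:**
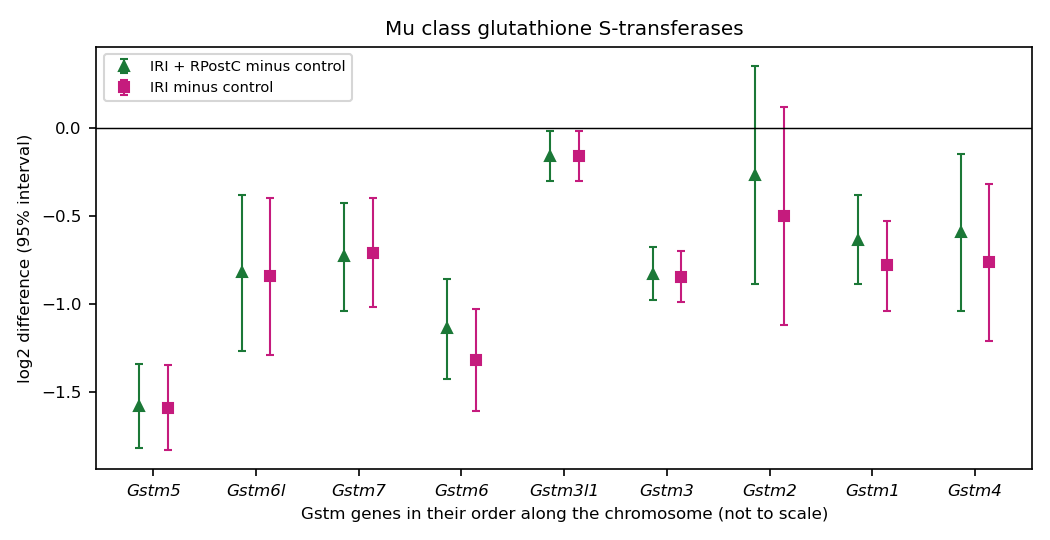
Fitted log2 difference from control (vertical axis, bars are 95% intervals, n = 3 arrays per group) of the 9 Gstm genes in their order along the chromosome (horizontal axis, not to scale), for IRI + RPostC (green triangles) and IRI (magenta squares). All 18 points lie below 0, from -1.59 at Gstm5 to -0.16 at Gstm3l1.

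Of the 7 alpha class genes (Gsta), 1 was higher and 1 lower in IRI than in control. That is 14.3% each way, near the 8.9% and 9.42% of single-symbol genes. Gsta4l1 gave 5.02, 5.21 and 5.11 in IRI + RPostC, 5.10, 5.04 and 5.06 in IRI, and 6.02, 6.54 and 6.16 in control, a 2.26-fold decrease in IRI (log2 difference -1.18 ± 0.13, SE, adjusted p = 0.000598). Gsta6 read 5.59, 5.58 and 5.58 in IRI + RPostC and 5.58 on each IRI array, against 4.99, 4.97 and 4.93 in control. Its log2 difference in IRI was 0.62 ± 0.03 (SE; adjusted p = 7.02e-06), and its SE rests on 3 IRI values that were identical. Among the 4 kappa, omega and pi genes, Gsto2 was higher in IRI than in control by 0.71 ± 0.18 (log2, SE, adjusted p = 0.0411), but it was not above background in control, which leaves a log2 difference of at least 0.35. That call was lost whichever of the 9 arrays was left out (adjusted p 0.0544 to 0.115). Gstp1, Gstp3 and Gstk1 differed by -0.04 to -0.01 and did not pass the test.

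The glutathione peroxidases differ in where they act: Gpx1 in the cytosol, Gpx3 in plasma and extracellular fluid, Gpx4 on lipid peroxides in membranes, and Gpx8 in the endoplasmic reticulum. Of the 9 Gpx symbols, 4 were below background on every array (Gpx2, Gpx2-ps2, Gpx5 and Gpx6), and all 10 members below background had a fitted difference below 0 in IRI against control, so the sign is not read for them. Of the other 5 Gpx genes, 3 passed the test, each lower in IRI. Gpx3 read 6.74, 6.79 and 6.79 in IRI + RPostC, 6.79, 6.49 and 6.65 in IRI, and 7.90, 7.62 and 7.28 in control. It was 1.94-fold lower in IRI (log2 difference -0.95 ± 0.15, SE, adjusted p = 0.00469). Gpx8 had 5.48 on each IRI + RPostC array, 5.45, 5.35 and 5.39 in IRI, and 6.15, 6.21 and 6.37 in control, a 1.8-fold decrease in IRI (adjusted p = 5.89e-05). In both genes the control arrays stood above all others.

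Gpx4, the peroxidase of membrane lipids that restrains ferroptosis, gave 6.59, 6.70 and 6.70 in IRI + RPostC, 6.70, 6.69 and 6.66 in IRI, and 7.16, 7.26 and 7.09 in control. Its log2 difference in IRI against control was -0.49 ± 0.05 (SE; adjusted p = 0.00066). Gpx6 also passed the test (adjusted p = 0.0167), but no level can be compared below background, and the call was lost after centring (0.124), without tied probe sets (0.0651) and without IRI 1 or control 2 (0.0571 and 0.0512). Gpx1 read 10.02, 9.74 and 9.95 in IRI + RPostC, 9.90, 9.96 and 9.95 in IRI, and 9.93, 9.96 and 10.05 in control, and the groups overlapped. Its difference in IRI was -0.05, with a 95% interval from -0.22 to 0.13, but after quantile normalization it was -2.85.

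**Figure D3:**
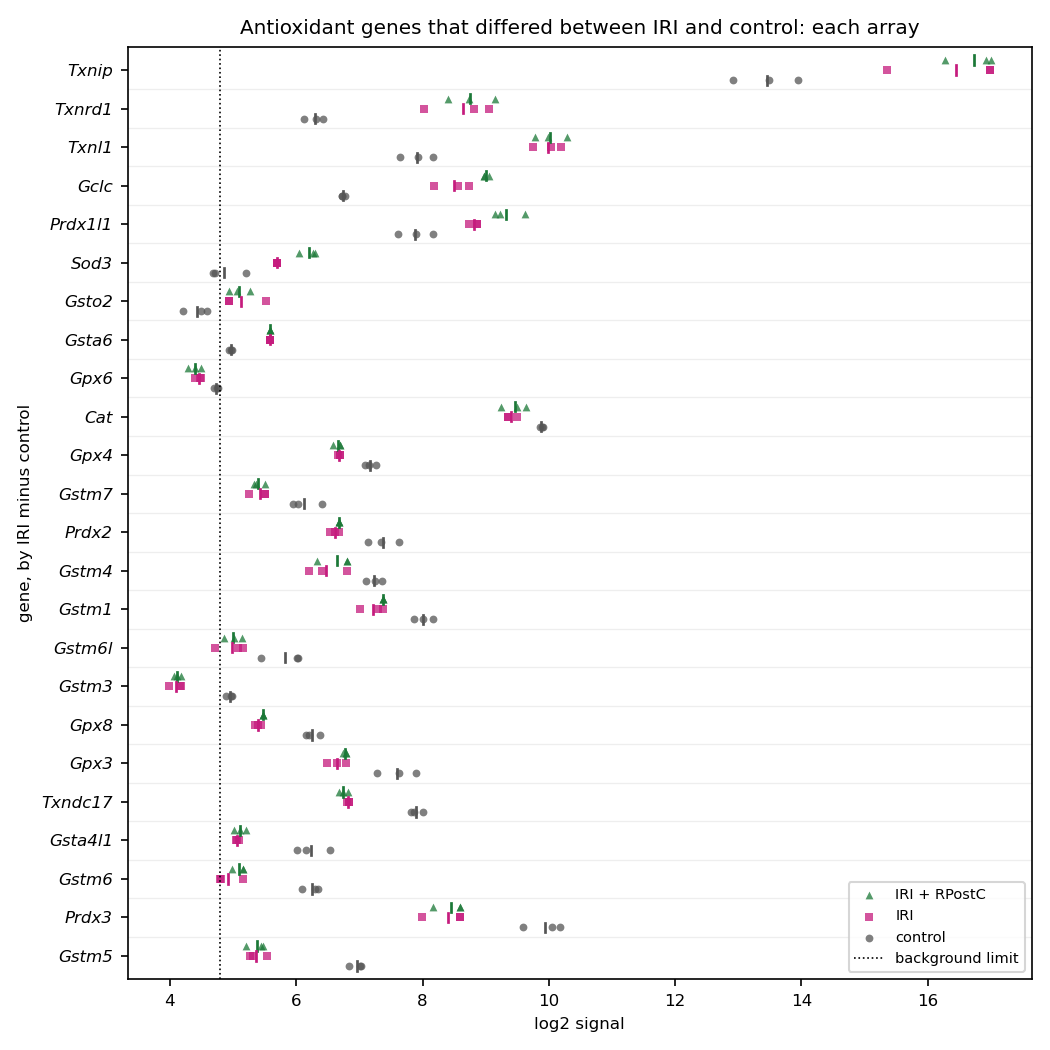
Log2 signal (horizontal axis) on each of the 9 arrays for the 24 members that differed between IRI and control (vertical axis, ordered by the fitted difference). Green triangles are IRI + RPostC, magenta squares IRI and grey circles control; short bars are group means of 3 arrays, and the dotted line is the background limit of 4.79. For every gene shown, the IRI and control arrays do not overlap.

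Among the genes of glutathione synthesis and recycling, Gclc alone passed the test in IRI against control. Gclc read 9.05, 8.98 and 8.97 in IRI + RPostC, 8.56, 8.18 and 8.74 in IRI, and 6.73, 6.78 and 6.73 in control. The 3 groups did not overlap, with IRI + RPostC highest and control lowest. It was 3.36-fold higher in IRI than in control (log2 difference 1.75 ± 0.13, SE, adjusted p = 6.85e-05) and 4.77-fold higher in IRI + RPostC (2.25 ± 0.13; adjusted p = 1.47e-05). After quantile normalization the difference in IRI was 1.11.

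Its modifier subunit Gclm had 6.02 on each IRI + RPostC array, 6.02, 5.97 and 6.01 in IRI, and 6.17, 6.50 and 6.02 in control. The Gclm difference in IRI was -0.23, with a 95% interval from -0.49 to 0.03, and after quantile normalization it was -0.59 (adjusted p = 0.0163). Gss differed by -0.02 (interval -0.21 to 0.17) and Gsr by 0.03 (interval -0.08 to 0.13). The cystine transporter subunit Slc7a11 was below background on every array, between 3.99 and 4.14, so no level can be compared.

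Among the 9 peroxiredoxins, 1 was higher (11.1%) and 2 were lower (22.2%) in IRI than in control. Of single-symbol genes, 8.9% were higher and 9.42% lower. Prdx3, the peroxiredoxin of the mitochondrial matrix, read 8.16, 8.60 and 8.60 in IRI + RPostC, 7.99, 8.60 and 8.60 in IRI, and 10.18, 10.05 and 9.59 in control. The lowest control array was above every other array, and the decrease in IRI was 2.92-fold (log2 difference -1.55 ± 0.23, SE, adjusted p = 0.00336). Prdx2, abundant in the cytosol and in red cells, had 6.67 on each IRI + RPostC array, 6.53, 6.67 and 6.62 in IRI, and 7.63, 7.13 and 7.34 in control, a 1.69-fold decrease in IRI (adjusted p = 0.00361). Of the 3 red cell markers measured, Alas2 alone was lower in IRI (-1.70) and in IRI + RPostC (-1.59), while Hbb differed by 0.15 and Slc4a1 by 0.00 in IRI. The mean log2 signal of the 3 was 5.77 to 5.81 in IRI + RPostC, 5.74 to 5.76 in IRI and 6.12 to 6.44 in control. The part of red cells in the Prdx2 result was not tested.

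Prdx1l1, a Prdx1-like gene, gave 9.14, 9.62 and 9.22 in IRI + RPostC, 8.86, 8.74 and 8.86 in IRI, and 7.89, 8.16 and 7.61 in control, with no overlap between the 3 groups. It was 1.91-fold higher in IRI than in control (log2 difference 0.94 ± 0.17, SE, adjusted p = 0.00813), but after quantile normalization the difference was -0.04. Prdx1 itself read 10.91, 11.20 and 10.91 in IRI + RPostC, 10.91, 10.91 and 10.85 in IRI, and 12.33, 10.91 and 10.39 in control. Control 1 stood apart, the groups overlapped, and the difference in IRI was -0.32 with a 95% interval from -1.37 to 0.72, but -5.63 after quantile normalization (adjusted p = 5.56e-05). Signals of Prdx1, Prdx1l1 and the Prdx1 pseudogenes may be shared and cannot be told apart here. The remaining peroxiredoxins did not pass the test in IRI, with differences of -0.29 for Prdx4, -0.04 for Prdx5 and 0.27 for Prdx6. After quantile normalization Prdx4 (-0.61) and Prdx5 (-0.26) were called lower, and Prdx6 stood at -0.04.

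The thioredoxin system held the largest increases of all members. Txnrd1, the cytosolic thioredoxin reductase, read 9.14, 8.73 and 8.40 in IRI + RPostC, 8.81, 8.03 and 9.06 in IRI, and 6.13, 6.31 and 6.43 in control. The increase in IRI was 5.06-fold (log2 difference 2.34 ± 0.29, SE, adjusted p = 0.00127), and the difference after quantile normalization was 1.79. Txnl1 gave 9.78, 10.29 and 9.98 in IRI + RPostC, 10.19, 10.03 and 9.75 in IRI, and 7.93, 7.65 and 8.16 in control. It was 4.22-fold higher in IRI than in control (2.08 ± 0.19; adjusted p = 0.000201), and 0.94 on the log2 scale after quantile normalization. In both genes the lowest IRI + RPostC or IRI array lay well above the highest control array.

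Txnip, which binds and inhibits thioredoxin, read 16.28, 17.00 and 16.93 in IRI + RPostC, 16.98, 16.98 and 15.36 in IRI, and 13.95, 13.49 and 12.92 in control. The deposited values gave a 7.92-fold increase in IRI (log2 difference 2.98 ± 0.49, SE, adjusted p = 0.00548), and after quantile normalization the sign turned to -3.19. Txndc17, a small thioredoxin-like reductase, read 6.67, 6.82 and 6.74 in IRI + RPostC, 6.84, 6.80 and 6.84 in IRI, and 7.82, 8.0 and 7.86 in control. It was the only Txndc gene of 8 to pass the test, 2.10-fold lower in IRI (-1.07 ± 0.06; adjusted p = 1.35e-05). That 1 lower call of 8 (12.5%) lies near the 9.42% of single-symbol genes called lower.

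Thioredoxin itself, Txn1, gave 11.93, 11.70 and 11.70 in IRI + RPostC, 11.70 to the second decimal on each IRI array, and 11.43, 11.60 and 11.52 in control. Its difference in IRI was 0.18, with a 95% interval from 0.01 to 0.36 and an adjusted p of 0.167, and after quantile normalization it was -5.62. The mitochondrial pair Txn2 and Txnrd2 differed by -0.16 (interval -0.36 to 0.05) and -0.04 (interval -0.20 to 0.12), the second called at -0.25 after quantile normalization.

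Of the superoxide dismutases, Sod3, the extracellular enzyme, was higher in IRI than in control. It read 6.29, 6.04 and 6.26 in IRI + RPostC, 5.69 on each IRI array, and 4.68, 5.20 and 4.71 in control, where 1 of 3 arrays was above background. The 3 groups did not overlap. Sod3 was 1.77-fold higher in IRI (log2 difference 0.82 ± 0.14, SE, adjusted p = 0.0065) and 2.52-fold higher in IRI + RPostC (1.33 ± 0.14; adjusted p = 0.000501), and after quantile normalization the difference in IRI was 0.78.

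Sod2, the mitochondrial enzyme, gave 12.67, 12.74 and 12.56 in IRI + RPostC, 12.18, 12.56 and 12.56 in IRI, and 12.26, 12.28 and 12.12 in control. In IRI its difference was 0.21, with a 95% interval from -0.06 to 0.48. The cytosolic Sod1 differed by 0.10 in IRI, with an interval from -0.09 to 0.28. After quantile normalization both turned to calls in the lower direction, Sod2 at -5.77 (adjusted p = 3.16e-09) and Sod1 at -3.5 (adjusted p = 0.00262). Cat read 9.25, 9.49 and 9.64 in IRI + RPostC, 9.36, 9.49 and 9.36 in IRI, and 9.89, 9.86 and 9.90 in control. Catalase differed by -0.48 ± 0.10 in IRI (log2, SE, adjusted p = 0.0142), a call that was lost without IRI 1 or 3 (0.0525 and 0.052) and after centring (0.0606).

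Neither the regulators Nfe2l2 and Keap1 nor the targets Nqo1 and Srxn1 passed the test in IRI against control. Nfe2l2, which encodes NRF2, read 6.98, 7.0 and 6.98 in IRI + RPostC, 6.98 on each IRI array to the second decimal, and 6.90, 6.93 and 6.92 in control. The difference in IRI was 0.06, with a 95% interval from -0.01 to 0.13, but after quantile normalization it was -0.49 and called lower (adjusted p = 0.00213), as it was in IRI + RPostC (-0.54, adjusted p = 0.0011). Keap1 was at 4.89 on each IRI and control array (difference 0.00, interval -0.07 to 0.07). The quinone reductase Nqo1 had 5.14 on 8 of 9 arrays and differed by 0.05 (interval -0.06 to 0.16). Srxn1, which restores overoxidized peroxiredoxins, was above background on 1 array only.

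In IRI + RPostC against control, 9 members were higher and 15 lower, again 35.8% of the 67, where 17.7% of all probe sets (10.7% higher and 6.95% lower) and 20% of single-symbol genes (10.2% higher and 9.84% lower) were called. Both comparisons used the same control arrays. After quantile normalization the split was 6 higher and 35 lower, and after centring, which moved the median of all probe sets by 0.123, it was 11 higher and 13 lower. Of all 65403 probe sets, 5070 were then higher and 9271 lower after quantile normalization, and 8451 and 2693 after centring. With the filter on dim probe sets, 11 of 55 members were higher and 16 lower, against 7766 and 3395 of 26362 probe sets. The median log2 difference was -0.10 over the members and -0.06 over all probe sets.

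The members with the largest increase were Txnip (3.28 ± 0.49, log2 difference and SE, limma adjusted p = 0.00321), Txnrd1 (2.47 ± 0.29, 0.000899) and Txnl1 (2.10 ± 0.19, 0.000179), beside Gclc, Prdx1l1 (1.44 ± 0.17, 0.00084) and Sod3. Those with the largest decrease were Gstm5 (-1.58 ± 0.10; 3.1e-05), Prdx3 (-1.49 ± 0.23; 0.0038), Txndc17 (-1.15 ± 0.06; 8.45e-06) and Gstm6 (-1.14 ± 0.12; 0.000507). All 9 Gstm genes were again below 0, and 6 of them passed the test. After quantile normalization Txnip stood at -3.09, and Prdx1l1 at 0.26 was no longer called (limma, adjusted p = 0.376).

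Sod2 and Prdx6, an enzyme with peroxidase and phospholipase activity, were called in IRI + RPostC and not in IRI. Prdx6 read 6.25, 6.63 and 6.25 in IRI + RPostC, 6.25 on each IRI array, and 6.10, 5.91 and 5.93 in control. Its difference in IRI + RPostC against control was 0.40 ± 0.11 (log2, SE, adjusted p = 0.046), and it was lost without IRI + RPostC 1 or 3, any IRI array, or control 2 or 3 (0.0504 to 0.122). For Sod2 it was 0.44 ± 0.11 (adjusted p = 0.0381), lost without any IRI + RPostC or control array in turn (0.0635 to 0.124) and -5.76 after quantile normalization. Between IRI + RPostC and IRI, the difference was 0.13 for Prdx6 (95% interval -0.13 to 0.38) and 0.23 for Sod2 (-0.04 to 0.49), with an adjusted p of 1 for both. In the other direction, Gstm4 (-0.59; adjusted p = 0.0773) and Gsto2 (0.66; 0.0502) were called in IRI and not in IRI + RPostC, and between these groups Gstm4 differed by 0.17 (95% interval -0.28 to 0.61) and Gsto2 by -0.05 (-0.48 to 0.39).

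Whether RPostC changed these genes is asked by IRI + RPostC against IRI. By limma, no member and no other probe set passed the adjusted threshold (0% of all probe sets; smallest adjusted p 0.29). At an unadjusted p under 0.05, 3 members were higher and 0 lower, where 1.71% of all probe sets were higher and 1.79% lower. The methods' t-test also gave 3 higher and 0 lower at that level, where 754 of 61436 probe sets were higher and 690 lower. For 5 members, all higher in IRI + RPostC, no array of one group fell within the range of the other, which held for 2.63% of all probe sets in the higher and 3.2% in the lower direction. Those 5 were Gclc, Gpx8, Prdx1l1, Sod3 and Txnl4al1. The median difference was 0.02 over the members, and their fitted differences ran from -0.24 to 0.51.

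Gclc, the catalytic subunit for glutathione synthesis, was 1.42-fold higher in IRI + RPostC than in IRI, a log2 difference of 0.51 with a 95% interval from 0.20 to 0.81 (limma, adjusted p = 1). Sod3, the extracellular superoxide dismutase, was also 1.42-fold higher, by 0.51 with an interval from 0.18 to 0.84 (adjusted p = 1). Prdx1l1 differed by 0.50, with an interval from 0.11 to 0.90 (adjusted p = 1). In all 3 genes every IRI + RPostC array was above every IRI array, and these were also 3 of the genes that were higher in IRI than in control. None of the 3 passed the adjustment, so none is called changed.

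Over the alternatives in which each was tested, the unadjusted p stayed under 0.05 in 20 of 20 for Gclc (difference 0.32 to 0.63) and in 18 of 18 for Sod3 (0.44 to 0.59). The Sod3 values were identical on all IRI arrays, so its spread there was 0. The filters on tied probe sets and on a mean under 6 left Sod3 out. For Prdx1l1 it did so in 17 of 20, and missed it after quantile normalization (difference 0.30) and without IRI + RPostC 2 or IRI 2. In limma the next members by unadjusted p were Txnl4al1, which was below background on every array, then Sod2, Gstm6 (difference 0.18, 95% interval -0.11 to 0.47), Gstm1 (0.15, -0.11 to 0.40) and Txndc17 (-0.08, -0.22 to 0.06). Each had an adjusted p of 1. For Gstm5 the difference was 0.01, with a 95% interval from -0.23 to 0.25, and for Txnip it was 0.30, with an interval from -0.87 to 1.46.

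**Figure D4:**
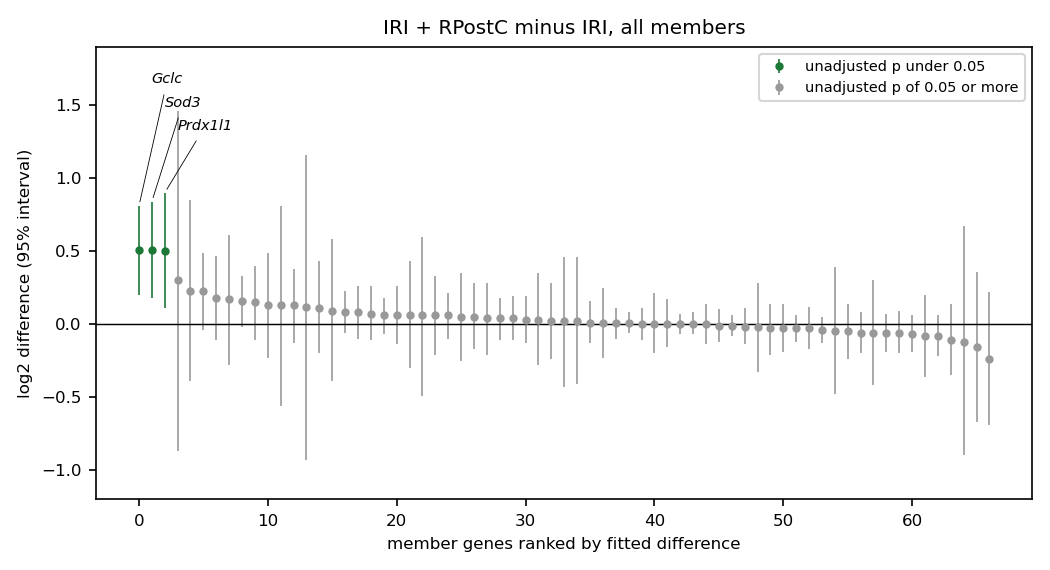
Fitted log2 difference of IRI + RPostC minus IRI (vertical axis) with its 95% interval for all 67 members, ranked by that difference (horizontal axis; 3 arrays per group). The 3 members in green, Gclc, Sod3 and Prdx1l1, had an unadjusted p under 0.05, and none passed the adjusted threshold.

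Beyond the families, further genes of the pathway were counted in fixed lists. Of 22 measured NRF2 targets and partners, 5 were higher and 2 lower in IRI than in control, with a median of 0.04 (4 higher and 8 lower after quantile normalization). The background for this and the following lists is the 8.9% of single-symbol genes that were higher and the 9.42% that were lower, and the 2 of 22 lower here lie near it. Hmox1, the heme oxygenase that NRF2 induces, read 6.93, 6.69 and 6.48 in IRI + RPostC, 7.89, 6.19 and 6.20 in IRI, and 4.92, 5.25 and 5.08 in control, a log2 difference of 1.68 ± 0.44 in IRI (SE; adjusted p = 0.0422). Ugdh, which makes UDP-glucuronate, and the carbonyl reductase Cbr1 differed by 2.24 and 1.44 in IRI, and Slc3a2, the partner chain of the cystine transporter, by 0.79, a call that ended after quantile normalization (0.28, adjusted p = 0.276). Cul3, the scaffold of the ligase that degrades NRF2, was the larger of the 2 decreases at -2.57 ± 0.15 (adjusted p = 1.71e-05).

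Of 13 measured sources of superoxide and peroxide, 5 were higher and 1 lower in IRI (4 and 2 after quantile normalization), the lower count again near the background. Maoa, a mitochondrial amine oxidase that releases hydrogen peroxide, read 11.25, 10.44 and 11.05 in IRI + RPostC, 9.70, 10.22 and 10.28 in IRI, and 6.32, 6.23 and 5.86 in control, a log2 difference of 3.93 ± 0.25 in IRI (SE; adjusted p = 3.03e-05). Its sister enzyme Maob differed by -1.06 (adjusted p = 0.000193). Xdh, Nos3, Nox4 and the phagocyte oxidase subunit Ncf1 were higher by 2.69, 1.5, 0.88 and 0.68, and the Xdh call ended after quantile normalization (1.27, adjusted p = 0.0595). Of 10 measured genes of NADPH supply, 3 were higher and 2 lower (2 and 4 after quantile normalization), and of 22 other glutathione and thiol repair genes, 4 were higher and 2 lower (2 and 9). In IRI + RPostC against IRI, no gene of the 4 lists passed the adjusted threshold.

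Markers of some other cell types moved with the groups. Of 6 neutrophil markers, 4 were higher in IRI than in control, with a mean log2 signal of 5.95 to 6.68 in IRI + RPostC, 6.07 to 6.42 in IRI and 4.91 to 5.03 in control, and the count was 4 after quantile normalization too. Of 6 fibroblast markers, 4 were higher in IRI (9.63 to 9.65 in IRI + RPostC, 9.42 to 9.68 in IRI and 7.78 to 8.07 in control), as were 3 of 4 endothelial markers (10.06 to 10.26 in IRI + RPostC, 9.73 to 10.69 in IRI and 7.72 to 8.12 in control). In IRI against control, Dcn differed by 6.46 and the other fibroblast markers by 0.02 to 1.32. To the second decimal, Dcn read 18.82 on every IRI + RPostC and IRI array. Pecam1 differed by 7.01 and the other endothelial markers by 0.11 to 1.14, so these list means lean on Dcn and Pecam1. After quantile normalization both lists turned, to 1 higher and 2 lower each. Cardiomyocyte markers marked the tissue as heart, at 15.53 to 15.60 in IRI + RPostC, 15.51 to 15.61 in IRI and 14.75 to 14.94 in control, with 3 of 8 higher in IRI, but all 8 lower after quantile normalization. Among them, Myh7 read 19.93, at the top of the scale, on every IRI + RPostC and IRI array. Actc1 read 19.93 and Myl2 12.74 on all 9 arrays. Macrophage markers held 0 calls of 6 in IRI (2 higher after centring), and 4 of 5 T, NK and B cell markers were below background. Of 4 smooth muscle markers, Acta2 was lower in IRI than in control (-4.06; limma, adjusted p = 0.00502). Myh11, Tagln and Cnn1 lay at 0.36 to 1.12 and did not pass the test. The part of these cells in the members' differences was not tested.

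Members with a high signal in control shifted furthest after quantile normalization. Signs turned among dimmer members too, such as Prdx1l1 (0.94 to -0.04 in IRI against control) and Nfe2l2 (0.06 to -0.49). The 9 members with a control mean of at least 9 (Cat, Gpx1, Prdx1, Prdx3, Gstm2, Sod1, Sod2, Txn1 and Txnip) had a median difference in IRI of -0.05 as deposited, and all 9 were lower after quantile normalization, with a median of -3.99. The other 58 had a median of -0.08 as deposited and of -0.25 after quantile normalization, where 6 were higher and 26 lower. Gclc, Txnrd1, Txnl1 and Gsta6 among the higher genes, and Gstm1, Gstm3, Gstm5, Gstm6, Gsta4l1, Gpx4, Gpx8, Prdx3 and Txndc17 among the lower, kept direction and call in IRI under all alternatives in which they were tested.

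**Figure D5:**
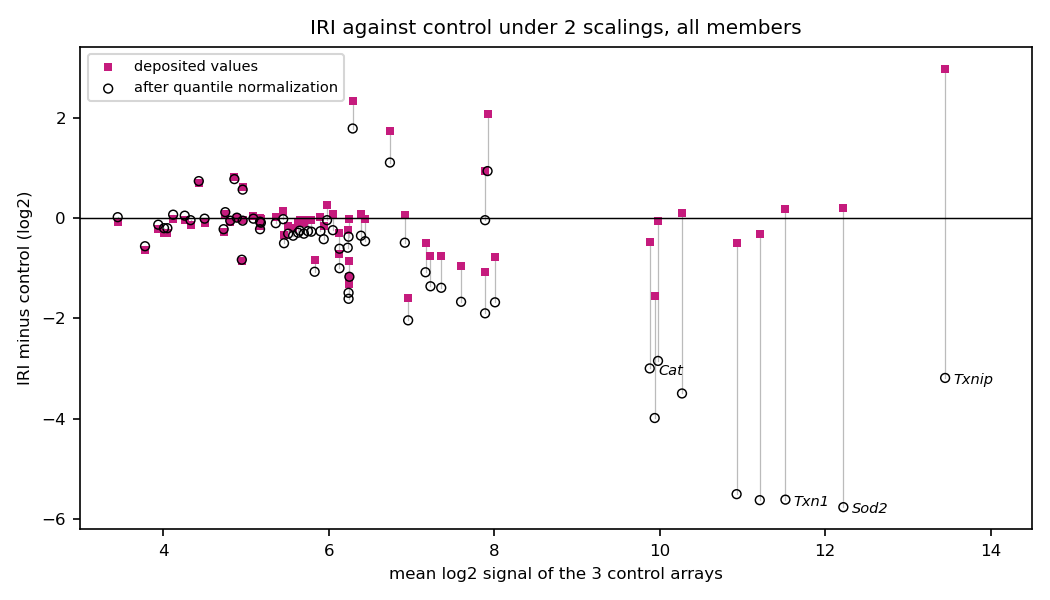
IRI minus control (vertical axis, log2) against the mean log2 signal of the 3 control arrays (horizontal axis) for the 67 members, from the deposited values (magenta squares) and after quantile normalization (open circles), joined by a line for each gene. The 9 members with a control mean of at least 9 all fall below 0 after quantile normalization.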

How the data were processed

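Left ventricular RNA was hybridized to 9 arrays, and the labels gave 3 to each group. The authors labelled TRIzol and RNeasy RNA with whole-transcript kits and processed the scans by robust multichip analysis (RMA). Their deposited table, which spans 2.04 to 19.9, was read as log2 signals. The chip is the Rat Gene 2.0 ST array per the methods and a human array per the series record, and the probe sets carried rat annotation. Software versions were not given in the sources used here, nor whether the 9 arrays were normalized together.

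The table has 65526 probe sets, less 123 controls, and the other 65403 entered 1 fit over the 3 groups with limma 3.58.1 (lmFit and eBayes) in R 4.3.3, with Benjamini-Hochberg adjustment over all 65403, a threshold of 0.05 and no filter. A single symbol was given to 22070 probe sets, several to 478 and none to 42855. A gene was read from the probe set with the highest mean over the 9 arrays, and each member had only 1. All 67 member symbols were found in the RefSeq gene table, and 58 had a promoter there. Intervals are 95% intervals of the fit, and the number of arrays limits the precision. Where a group was below the background limit of 4.79 on all its arrays, the difference is given as a bound from the mean of the other group to that limit. The fit was tested on simulated arrays before use.

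Genes given with values were members called in IRI against control (up to 12 in each direction by size), the 8 of smallest unadjusted p in IRI + RPostC against IRI, Gstm5, and members of known role; Gstm2, Gstm3l1, Gstm7, Gpx6, Gstk1, Gstp1 and Gstp3 were added after their values were seen. The members, lists and alternatives were chosen with earlier results of these data known. Other lists are NRF2 targets and partners, NADPH supply, glutathione and thiol repair, sources of superoxide and peroxide, and cell type markers. Alternatives were quantile normalization, centring, a fit of only the 2 groups compared, weights per array, trend and robust options of eBayes, filters on dim, near-saturated or tied probe sets, the methods' t-test, a replicate block and leaving out each array. Tables were handled in Python 3.11.15 with pandas 2.3.3, numpy 2.4.6 and scipy 1.17.1, and figures drawn with matplotlib 3.10.9.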

Additional observations from a re-analysis of the deposited data

Results flagged for a closer look

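A probe set that the platform annotation gives to both Gsto1 and Gsto2 was outside the members, which needed a single symbol. It read 5.19, 5.31 and 5.19 in IRI + RPostC, 5.27, 5.19 and 5.19 in IRI, and 5.02, 5.08 and 5.04 in control. It drew notice as a signal in data that the comparisons did not use: it was higher in IRI than in control by 0.17 on the log2 scale (limma, adjusted p = 0.0459) and higher in IRI + RPostC by 0.19 (adjusted p = 0.0339), with no overlap with the control arrays. Which of the 2 genes gave the signal cannot be told apart.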

How the results depend on the processing

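Quantile normalization gave 35 members lower in IRI against control and 35 lower in IRI + RPostC against control, and it turned Txnip to -3.19 and -3.09, Prdx1l1 in IRI to -0.04 and Sod2 in IRI + RPostC to -5.76. All arrays then share 1 distribution, and the top of the scale, where the control arrays hold fewer probe sets, moves most. Rounded to the second decimal, fitted differences in IRI changed sign, or moved to or from 0, in 18 of 67 members after quantile normalization. The count was 14 after centring, against 20 and 15 in IRI + RPostC. With only probe sets of mean 6 or more, an alternative chosen after the values were seen, 26 members remained. Of these, 5 were higher and 8 lower in IRI, and 8 higher and 8 lower in IRI + RPostC. Of the 12340 probe sets kept, 5940 were higher and 1762 lower in IRI, and 6129 and 1607 in IRI + RPostC. The members were thus called higher less often, and lower more often, than all probe sets kept. At an unadjusted p under 0.05, 5 members were higher in IRI + RPostC than in IRI with array weights. Of all 65403 probe sets, 2092 were higher and 2701 lower by that rule.

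Leaving out each array in turn gave 7 to 8 members higher and 13 to 16 lower in IRI, 7 to 9 higher and 14 to 16 lower in IRI + RPostC, and, between IRI + RPostC and IRI, 2 to 5 higher with 0 lower by unadjusted p (5 without IRI 1, and 2 without IRI + RPostC 2 or IRI 2). Over all 65403 probe sets, 5627 to 6348 were higher and 2941 to 4469 lower in IRI. In IRI + RPostC these counts were 5921 to 6988 and 3006 to 4868. Between IRI + RPostC and IRI, 917 to 1471 were higher and 819 to 1943 lower by unadjusted p. In IRI + RPostC, Cat was lost without IRI + RPostC 2 or any control array (adjusted p 0.0551 to 0.0631) and Gstm6l without IRI + RPostC 1 or 3 or control 2 or 3 (0.0679 to 0.0742).

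The methods' t-test with Benjamini-Hochberg adjustment called 6 members higher and 12 lower in IRI, and 9 higher and 11 lower in IRI + RPostC. Of 63967 probe sets it called 4602 higher and 1828 lower in IRI. In IRI + RPostC it called 5263 and 2089 of 63832. It lost Gpx3 (0.0739), Gstm7 (0.0895), Prdx2 (0.0632), Sod3 (0.0691) and Txnip (0.0715) in IRI, among others. Between IRI + RPostC and IRI, deviations of same-numbered arrays correlated at -0.3 to 0.031, and those of differently numbered arrays at -0.349 to 0.396. With 3 arrays per group, this cannot decide whether same-numbered arrays share more than a number. With the replicate block, 7 members were higher and 15 lower in IRI and in IRI + RPostC alike, Gstm4 (0.0974) and Gsto2 (0.0724) were lost in IRI, and Prdx6 (0.0934) and Sod2 (0.0668) in IRI + RPostC. Of all 65403 probe sets, 5807 were then higher and 3353 lower in IRI, and 6338 and 3784 in IRI + RPostC. Averaging all probe sets of a gene changed nothing, since each member had 1.

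Over the called genes and the 8 of smallest p between IRI + RPostC and IRI, alternatives other than leaving out an array kept direction and call in 533 cases, lost the call in 39 and turned the sign in 4. Leaving out an array kept them in 459 and lost the call in 45. The 8 genes had no call to lose, and all their cases count as kept. Of the 24 members called in IRI, 13 kept direction and call under all alternatives that tested them. In IRI + RPostC 14 of 24 did. Depth cannot be counted on arrays: signals near 4.79 are close to background.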
